A study of Mus musculus with 21 samples.

Results

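Transforming growth factor beta (TGF-beta) genes were measured in podocyte fractions of mouse kidney as the reads per gene of RNA sequencing. The 9 genes described here, of 27179 in the count tables, were chosen by name as the core of the pathway: the ligands Tgfb1, Tgfb2 and Tgfb3, the receptors Tgfbr1 and Tgfbr2, the receptor-activated Smads Smad2 and Smad3, the inhibitory Smad7 and the target gene Tgfbi. All 9 passed the filter on low counts that left 16377 genes for testing. Podocytes are the epithelial cells that wrap the glomerular capillaries, and the fractions were captured with magnetic beads and anti-nephrin antibodies from digested kidney cortex, 1 library per mouse. All mice were male wild-type C57BL/6J. The groups were 6 young mice of 4 months, 7 middle-aged saline-treated mice of 19.5 months and 8 middle-aged MCC950-treated mice of 19.5 months. MCC950, a small-molecule inhibitor of the NLRP3 inflammasome, was given at 10 mg/kg by intraperitoneal injection, 2 times a week for 6 weeks from 18 months of age, and the saline mice were injected with the vehicle on the same schedule. The young mice are labelled untreated, so age and injection cannot be told apart in any comparison with them. The comparison of saline with young mice asks what differs with age, and that of MCC950 with saline mice asks what differs with inhibition of NLRP3 at the same age.

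TGF-beta ligands are secreted in a latent complex and, once released, bind a pair of receptor kinases. TGFBR2 activates TGFBR1, which phosphorylates SMAD2 and SMAD3, and these enter the nucleus with SMAD4 and switch on target genes. SMAD7 is induced by the same signal and acts as a brake on the receptor. In the kidney the pathway is known for scar formation, and in podocytes for cell loss when it is overactive. RNA levels do not measure ligand release or Smad phosphorylation.

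The libraries held 27375870 to 36827823 counts in young, 45772937 to 84876399 in saline and 35440472 to 58247271 in MCC950 mice, and the young libraries all held fewer counts than the saline libraries. Mitochondrial genes took 51.5% to 80.4%, 63.0% to 79.2% and 49.9% to 63.7% of the counts, respectively. The markers of podocytes and of other cells were both present. All 15 podocyte markers were detected, with a summed level of 739 to 1590 CPM (the usual per-library scaling of counts, here on TMM-scaled totals) in young, 294 to 561 in saline and 380 to 616 in MCC950 libraries, and markers of tubule, endothelium, mesangium, macrophages and lymphocytes were detected in all 3 groups. With age, 14 of 15 podocyte, 10 of 11 endothelial and 7 of 10 mesangial and smooth muscle markers fell, while 5 of 13 macrophage and myeloid, 4 of 9 T cell and 5 of 9 B and plasma cell markers rose (edgeR quasi-likelihood test, adjusted p under 0.05). Also lower were 4 of 8 collecting duct, 2 of 8 loop and distal tubule, 2 of 6 parietal epithelial and 1 of 12 proximal tubule markers. Of 8 fibroblast markers tested, 3 rose and 3 fell. Over all tested genes, 12.2% were higher and 12.4% lower. Between MCC950 and saline libraries, 8 of 12 proximal tubule and 4 of 15 podocyte markers were higher. Lower were 4 of 11 endothelial, 2 of 8 loop and distal tubule and 1 of 6 parietal epithelial markers. Over all tested genes, 11.9% were higher and 4.86% lower. Young replicate 1 stood apart, with the lowest macrophage and myeloid sum of all 21 libraries at 469 CPM and the highest proximal tubule sum of its group at 6950 CPM. MCC950 replicates 6 and 7 stood apart in their B and plasma cell sums, 8920 and 11300 CPM against 1240 to 2540 CPM in the other 6 MCC950 libraries. Their macrophage and myeloid sums were 3510 and 3620 CPM, below that of MCC950 replicate 8 at 4160 CPM, the highest of all 21 libraries.

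The promoter stretches of Tgfb2 and Tgfbi are shown because these genes, with Smad7, are the ones whose level differed between groups in the tests below. Tgfb2 lies on chromosome 1 from 186622787 to 186709697 and Tgfbi on chromosome 13 from 56609586 to 56639359 (GRCm38). The letters come from the RefSeq promoter table for GRCm38, run 5′ to 3′ on the strand of the gene and stop before the nearest listed exon base of that gene, and the stretch of Tgfb2 lies before 1 listed start but inside the span of the gene. Capitals mark the 5-letter sequence CAGAC or its reverse complement GTCTG, which holds the core of the SMAD binding element, and the 6-letter TATA box sequence TATAAA.
Tgfb2, chr1:186705990-186706239, minus strand: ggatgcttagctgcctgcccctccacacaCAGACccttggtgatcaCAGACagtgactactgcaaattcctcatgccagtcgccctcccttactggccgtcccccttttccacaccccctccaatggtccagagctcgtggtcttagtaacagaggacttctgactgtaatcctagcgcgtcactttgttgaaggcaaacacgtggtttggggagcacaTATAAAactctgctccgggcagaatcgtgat
Tgfbi, chr13:56609336-56609522, plus strand: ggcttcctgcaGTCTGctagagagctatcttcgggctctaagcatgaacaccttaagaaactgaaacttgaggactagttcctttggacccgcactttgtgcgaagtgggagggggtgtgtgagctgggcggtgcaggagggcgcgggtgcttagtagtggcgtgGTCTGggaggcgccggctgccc
The Tgfb2 stretch held 2 CAGAC matches, which began 221 and 204 bases before the listed start, and 1 TATAAA match 31 bases before it. The Tgfbi stretch held 2 GTCTG matches, at 239 and 85 bases before the start, and no TATAAA. Of 32851 promoter windows of 250 bases in the table, 42.2% held CAGAC on either strand and 12.4% held TATAAA. The windows of Tgfb1, of Smad3 and of the first listed start of Tgfbr1 held neither, and those of Tgfbr2 and of the other Tgfbr1 start held 1 CAGAC each. They are letter matches alone, and no binding was measured here.

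Per kilobase of exon, the receptors, Tgfbi and Tgfb1 were the most abundant of the 9 genes and Tgfb2 the least abundant. In young libraries the mean level was 20.2 ± 6.28 CPM per kb for Tgfbr1 (SD, n = 6), 17.4 ± 7.60 for Tgfbi, 13.9 ± 3.19 for Tgfbr2, 6.80 ± 2.86 for Tgfb1, 6.64 ± 0.915 for Smad7, 4.19 ± 0.363 for Smad3, 2.03 ± 0.0955 for Smad2, 1.39 ± 0.705 for Tgfb3 and 0.702 ± 0.215 for Tgfb2. The ranges of neighbours in that order overlapped, except between Smad7 and Smad3 and between Smad3 and Smad2. In saline libraries Tgfbi came first at 33.7 ± 6.29 CPM per kb (n = 7), ahead of Tgfbr1 at 21.1 ± 5.33, and their ranges overlapped. In MCC950 libraries Smad7 came after Smad3, at 4.14 ± 0.529 against 4.43 ± 0.539 CPM per kb (n = 8), again with overlapping ranges.

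**Figure D1:**
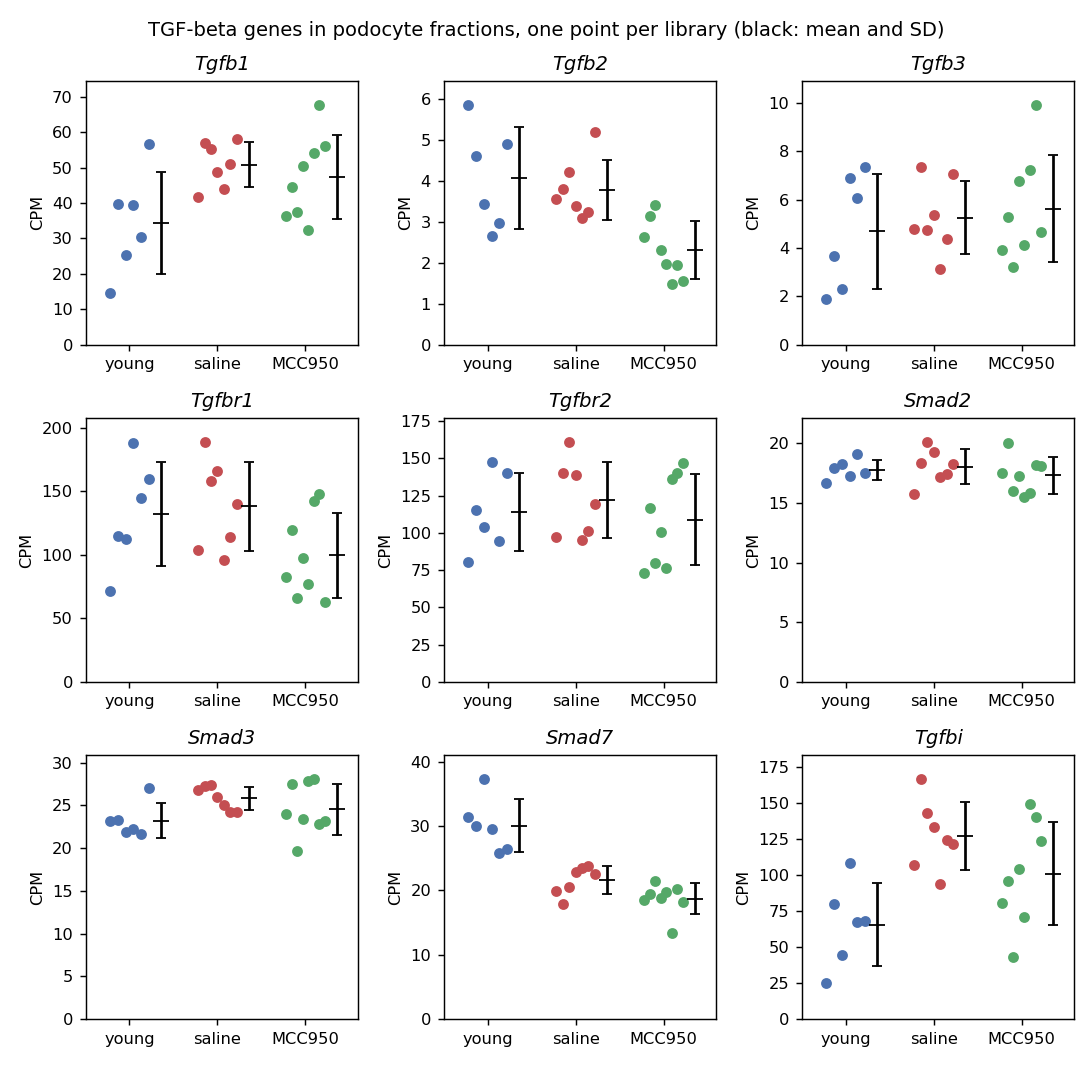
CPM of each of the 9 TGF-beta genes (vertical axes, linear, from 0) in young, saline and MCC950 libraries, 1 point per library in the order of replicate number, with the group mean and SD in black. Smad7 in the 7 saline libraries lies below the lowest young library at 25.8 CPM, 5 saline libraries lie above the highest young library for Tgfbi, and 6 MCC950 libraries lie below the lowest saline library for Tgfb2.

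With age, Tgfbi rose and Smad7 fell, and the other 7 genes did not pass the test. The share of all tested genes called at an adjusted p under 0.05 was 12.2% higher and 12.4% lower in saline libraries, against 1 of 9 TGF-beta genes in each direction, so the number called is close to that of genes in general. The median log2 fold change was 0.10 for the 9 genes and 0.02 for all genes tested. DESeq2 also called 1 gene in each direction.

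Tgfbi encodes an extracellular matrix protein that binds collagen and integrins. It ranged from 25.2 to 108.2 CPM in young libraries (median 67.4) and from 93.7 to 166 CPM in saline libraries (median 124). All 7 saline libraries were above the young median and 5 were above the highest young library, so the groups overlapped in part. The level was 1.94-fold higher in saline libraries (log2 fold change 0.96, SE 0.28, adjusted p = 0.0154). Without young replicate 1, the lowest library at 25.2 CPM, the log2 fold change was 0.79 (adjusted p = 0.029), and over the fits that left out each library in turn it ran from 0.79 to 1.16 (adjusted p from 0.00723 to 0.0469). Macrophage and myeloid markers moved with it. Their summed level was 469 to 2330 CPM in young, 1700 to 4080 in saline and 1120 to 4160 in MCC950 libraries, and none of the 13 markers was at 0 in any group. Per 1000 CPM of these markers, Tgfbi was at 32.4 to 54.5 CPM in young (median 46.4), 35.0 to 56.0 in saline (median 46.2) and 29.6 to 53.3 in MCC950 libraries (median 42.6). On that scale the young and saline ranges nearly coincided. In bulk samples more cells of a type and more RNA per cell cannot be told apart.

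Smad7 showed the opposite direction with a small spread. It ranged from 25.8 to 37.3 CPM in young libraries (median 29.7) and from 17.9 to 23.7 CPM in saline libraries (median 22.5), with no overlap. Over all tested genes, 9.37% did not overlap between these groups. The young level was 1.39-fold the saline level (log2 fold change -0.48, SE 0.10, adjusted p = 0.00162), and leaving out each library in turn gave log2 fold changes from -0.53 to -0.41 (adjusted p from 0.000393 to 0.00503). Endothelial and podocyte markers fell with it. The summed level of the 11 endothelial markers was 522 to 900 CPM in young and 295 to 439 in saline libraries, and none was at 0 in either group. Smad7 per 1000 CPM of endothelial markers was 32.8 to 51.3 CPM in young and 51.8 to 78.3 in saline libraries, and per 1000 CPM of podocyte markers it was 18.5 to 39.1 and 39.3 to 80.0. The median log2 fold change with age was -1.02 over the endothelial and -1.91 over the podocyte markers. Both lists thus fell by more than Smad7, so the ratios to them were higher in saline libraries. These ratios do not give a level per cell, and the part of these cells in the fall of Smad7 was not tested.

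**Figure D2:**
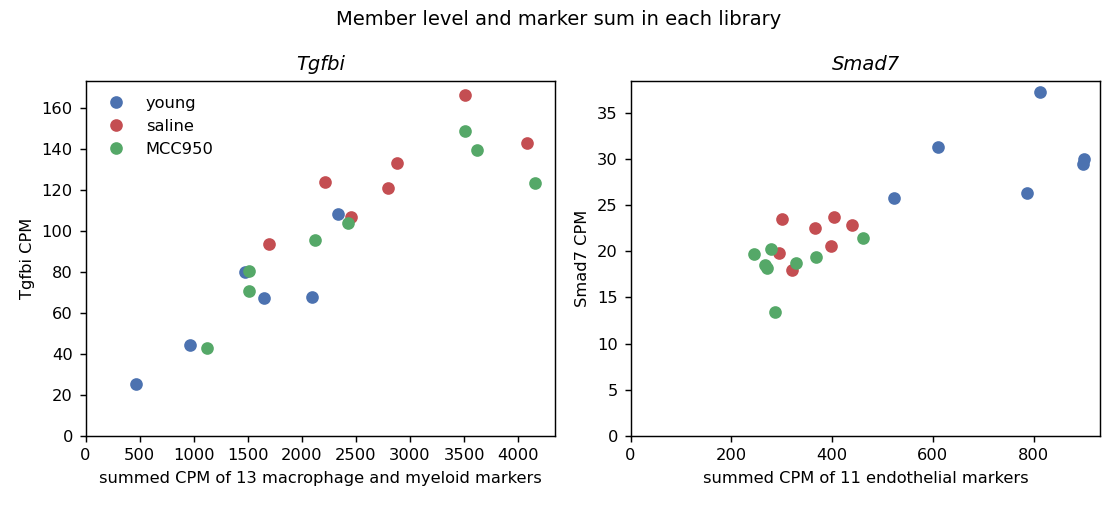
CPM of Tgfbi against the summed CPM of 13 macrophage and myeloid markers (left) and of Smad7 against that of 11 endothelial markers (right), linear axes from 0, 1 point per library. Tgfbi is lowest in young replicate 1, at 25.2 CPM and a marker sum of 469 CPM, and young libraries for Smad7 lie apart from both middle-aged groups, at 25.8 CPM or more and marker sums of 522 CPM or more.

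Tgfb1, the main ligand of the injured kidney, leaned the same way as Tgfbi without passing the test. It ranged from 14.5 to 56.6 CPM in young libraries (median 34.9) and from 41.7 to 58.1 CPM in saline libraries (median 51.1). All 7 saline libraries were above the young median, but young replicate 6, at 56.6 CPM, was above 5 of them. The log2 fold change was 0.57 (SE 0.22, adjusted p = 0.0644), and 0.77 (adjusted p = 0.0128) without young replicate 6. Without young replicate 1 it was 0.41 (adjusted p = 0.122). Per 1000 CPM of macrophage and myeloid markers, Tgfb1 was at 16.9 to 30.9 CPM in young and 13.5 to 25.7 CPM in saline libraries.

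Tgfb2 and Tgfb3 were low and spread widely. Tgfb2 had 53 to 235 counts per young library and 175 to 274 per saline library. It ranged from 2.66 to 5.85 CPM in young and from 3.08 to 5.19 CPM in saline libraries (log2 fold change -0.11, SE 0.21, adjusted p = 0.736). Tgfb3 ranged from 1.89 to 7.36 CPM in young and from 3.14 to 7.36 CPM in saline libraries (log2 fold change 0.18, SE 0.31, adjusted p = 0.724). With 95% intervals of -0.52 to 0.29 for Tgfb2 and -0.43 to 0.79 for Tgfb3, changes of moderate size in either direction were within what these libraries could miss.

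Neither receptor passed the test with age. Tgfbr1 ranged from 71.6 to 188 CPM in young (median 130) and from 95.7 to 189 CPM in saline libraries (median 140), with a log2 fold change of 0.07 (SE 0.23, adjusted p = 0.868). Tgfbr2 ranged from 80.7 to 148 CPM (median 110) and from 95.2 to 161 CPM (median 120), with a log2 fold change of 0.10 (SE 0.19, adjusted p = 0.742). The lowest young value of both came from young replicate 1.

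Smad2 and Smad3 had the narrowest spread of the 9 genes. Smad2 ranged from 16.7 to 19.1 CPM in young and from 15.7 to 20.1 CPM in saline libraries, and its log2 fold change of 0.02 had a 95% interval of -0.11 to 0.16 (adjusted p = 0.851). Smad3 ranged from 21.6 to 27.1 CPM in young (median 22.7) and from 24.2 to 27.3 CPM in saline libraries (median 25.9). All 7 saline libraries were above the young median of Smad3, and the log2 fold change of 0.15 (SE 0.08) did not pass the test (adjusted p = 0.165). Smad7 relative to the sum of Smad2 and Smad3, each per kb, was 0.846 to 1.37 in young (median 1.08), 0.565 to 0.828 in saline (median 0.734) and 0.431 to 0.885 in MCC950 libraries (median 0.648). No saline library reached the lowest young ratio, and 1 MCC950 library, replicate 3, did.

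MCC950 treatment went with a lower level of Tgfb2 and with no call for the other 8 genes. The share of all tested genes called was 11.9% higher and 4.86% lower in MCC950 libraries, against 0 and 1 of the 9 TGF-beta genes by edgeR and by DESeq2. At an unadjusted p under 0.05, 0 genes were higher and 3 were lower (Tgfb2, Tgfbr1 and Smad7). The share of all tested genes at that threshold is not given here, so this count has no background. The log2 fold change was below 0 for 8 of the 9 genes, with a median of -0.17 against 0.00 over all genes tested.

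Tgfb2 ranged from 3.08 to 5.19 CPM in saline libraries (median 3.55) and from 1.48 to 3.41 CPM in MCC950 libraries (median 2.14). All 8 MCC950 libraries were below the saline median, and 6 were below the lowest saline library. MCC950 replicates 2 and 3, at 3.13 and 3.41 CPM, overlapped with it. The saline level was 1.64-fold the MCC950 level (log2 fold change -0.71, SE 0.19, adjusted p = 0.0162), on 73 to 161 counts per MCC950 library. Leaving out each library in turn gave log2 fold changes from -0.82 to -0.64 (adjusted p from 0.0106 to 0.0341). Tgfb2 was at 1.48 and 1.94 CPM in MCC950 replicates 6 and 7, and without both the log2 fold change was -0.67 (adjusted p = 0.0228). Proximal tubule markers moved the other way: their sum was 1970 to 4450 CPM in saline and 2810 to 8220 CPM in MCC950 libraries, with none of the 12 at 0. The summed podocyte markers were 294 to 561 CPM in saline and 380 to 616 CPM in MCC950 libraries, and Tgfb2 per 1000 CPM of them was 6.03 to 11.2 CPM and 2.67 to 6.86 CPM. Per 1000 CPM of mesangial and smooth muscle markers it was 24.7 to 54.0 CPM and 14.4 to 31.8 CPM. Relative to these 2 lists Tgfb2 was lower in MCC950 libraries as well, with some overlap. Per 1000 CPM of proximal tubule markers, a list that rose with MCC950, Tgfb2 was at 0.798 to 1.86 CPM in saline libraries. In MCC950 libraries that ratio was 0.304 to 0.690 CPM, with no overlap. The podocyte list itself had 4 of 15 markers higher with MCC950 (edgeR, adjusted p under 0.05). No ratio was taken to the endothelial list, where 4 of 11 were lower. The part of the cells captured in the lower Tgfb2 level was not tested.

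**Figure D3:**
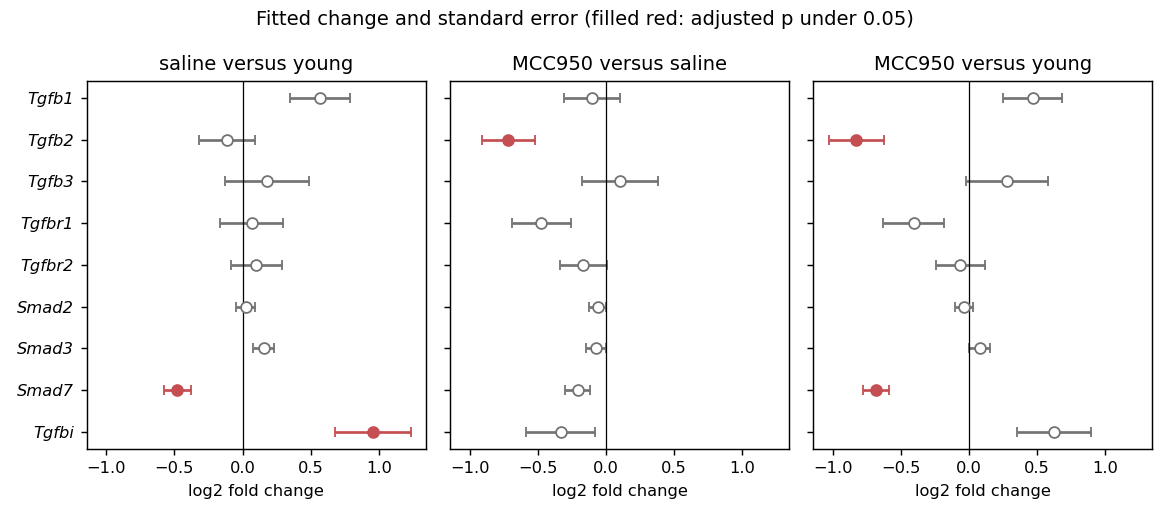
Fitted log2 fold change (horizontal axis) and its SE (bars) of the 9 TGF-beta genes in the comparisons of saline with young, MCC950 with saline and MCC950 with young libraries. Filled red points passed an adjusted p under 0.05 by edgeR: Tgfbi at 0.96 and Smad7 at -0.48 with age, Tgfb2 at -0.71 with MCC950, and Tgfb2 at -0.83 and Smad7 at -0.68 in MCC950 against young libraries.

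Tgfbr1 had the next largest difference with MCC950. It ranged from 95.7 to 189 CPM in saline and from 62.8 to 148 CPM in MCC950 libraries (medians 140 and 89.8), and 4 of 8 MCC950 libraries were below the lowest saline library. Its log2 fold change of -0.47 (SE 0.22) did not pass the test (adjusted p = 0.134), with a range of -0.58 to -0.39 over the fits without 1 library (adjusted p from 0.0602 to 0.261). Without both MCC950 replicates 6 and 7, where Tgfbr1 was at 143 and 148 CPM, the log2 fold change was -0.79 and passed the test (adjusted p = 0.0111), a fit chosen after the data were seen. Tgfbr2 ranged from 73.3 to 147 CPM in MCC950 libraries against 95.2 to 161 CPM in saline libraries (log2 fold change -0.17, SE 0.17, adjusted p = 0.552). The ratio of Tgfbr1 to Tgfbr2, each per kb, was 1.23 to 1.69 in saline libraries and 1.04 to 1.41 in 7 of the MCC950 libraries. MCC950 replicate 8 had a ratio of 0.537, with the lowest Tgfbr1 and the highest Tgfbr2 of its group. It also had the highest T cell marker sum of all libraries, at 77.5 CPM, and the highest macrophage and myeloid sum, at 4160 CPM.

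Smad7, Tgfbi and Tgfb1 were lower in MCC950 than in saline libraries by amounts that did not pass the test. Smad7 ranged from 13.4 to 21.5 CPM in MCC950 libraries (median 19.1), all 8 below the saline median (log2 fold change -0.21, SE 0.09, adjusted p = 0.131). Tgfbi ranged from 43.1 to 149 CPM (median 99.8), with 6 of 8 libraries below the saline median (log2 fold change -0.33, SE 0.25, adjusted p = 0.391). Its highest MCC950 values, 149 and 140 CPM, were those of replicates 6 and 7, and without both the log2 fold change was -0.63 (adjusted p = 0.0761). None of the 13 macrophage and myeloid markers was called between these groups by edgeR, and none had an unadjusted p under 0.05. Their log2 fold changes were below 0 for 12 and above 0 for 1, with a median of -0.19. Tgfb1 ranged from 32.3 to 67.7 CPM (log2 fold change -0.10, SE 0.20, adjusted p = 0.77). The values of Tgfb3 (3.20 to 9.92 CPM) and Smad2 (15.5 to 20.01 CPM) in MCC950 libraries spanned nearly the whole range of saline libraries or more. Their adjusted p was 0.835 and 0.545 by edgeR. Smad3 was at 19.7 to 28.1 CPM in MCC950 libraries, on both sides of the saline range. Of the 8 MCC950 libraries, 3 were above every saline library and 5 below every one (edgeR, adjusted p = 0.522).

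Against young libraries, which are not independent of the comparisons above, the MCC950 libraries differed in Smad7 and Tgfb2. The background was 21.8% of tested genes higher and 16.5% lower, against 0 and 2 of the 9 TGF-beta genes by edgeR and by DESeq2. At an unadjusted p under 0.05 there were 2 genes in each direction, without a background at that threshold. Smad7 was lower in all 8 MCC950 libraries, at 13.4 to 21.5 CPM, than in any young library, where 7.94% of all tested genes did not overlap (log2 fold change -0.68, SE 0.10, adjusted p = 2.66e-05). Tgfb2 was 1.78-fold lower (log2 fold change -0.83, SE 0.20, adjusted p = 0.00315), with 6 of 8 MCC950 libraries below the lowest young library. Tgfbi (log2 fold change 0.62, SE 0.27, adjusted p = 0.0708) and Tgfb1 (0.47, SE 0.21, adjusted p = 0.0902) did not pass. Tgfbi passed without young replicate 4 (0.81, adjusted p = 0.0311) or without MCC950 replicate 3 (0.74, adjusted p = 0.0236), and Tgfb1 without young replicate 6 (0.65, adjusted p = 0.0214). Without both MCC950 replicates 6 and 7 they were at 0.33 (adjusted p = 0.36) and 0.25 (adjusted p = 0.399), and Tgfbr1 passed at -0.73 (adjusted p = 0.0136).

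The makeup of the ligand RNA was dominated by Tgfb1 in every library. As a share of the summed CPM per kb of the 3 ligands, Tgfb1 took 64.7% to 80.7% in young (median 77.3%), 79.4% to 85.6% in saline (median 81.7%) and 80.4% to 87.1% in MCC950 libraries (median 81.3%). Tgfb3 took medians of 13.9%, 13.4% and 14.8%. Tgfb2 took 4.46% to 22.7% in young (median 7.16%), 4.65% to 6.17% in saline (median 5.23%) and 1.95% to 6.60% in MCC950 libraries (median 3.74%). Its highest share, 22.7%, was that of young replicate 1, which combined the highest Tgfb2 level (5.85 CPM) with the lowest Tgfb1 level (14.5 CPM) of all libraries.

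**Figure D4:**
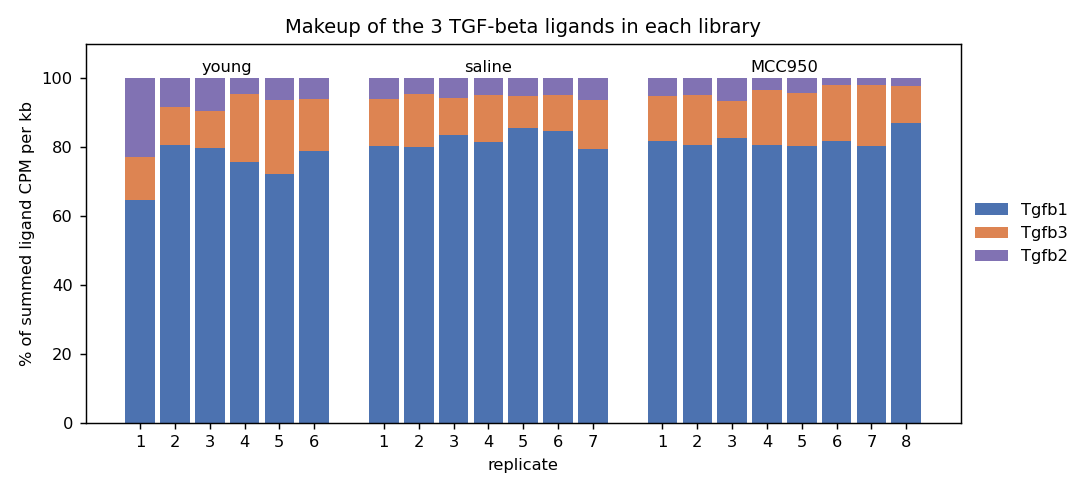
Share of Tgfb1, Tgfb3 and Tgfb2 in the summed CPM per kb of exon of the 3 TGF-beta ligands (vertical axis, percent), 1 bar per library, by group and replicate number. Tgfb1 takes 64.7% or more in every library, and Tgfb2 takes its largest share, 22.7%, in young replicate 1.

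The 9 genes did not vary as one block among libraries. After subtraction of the group means from log2 CPM, Tgfb1, Tgfb3, Tgfbr1, Tgfbr2 and Tgfbi deviated together over the 21 libraries, with Pearson correlations between 0.66 (Tgfb3 and Tgfbr2) and 0.84 (Tgfb3 and Tgfbr1). Tgfb2 deviated against Tgfbi (-0.57), and Smad7 against Tgfb3 (-0.55), Smad3 (-0.55) and Tgfbi (-0.53). Smad2 and Smad3 showed no joint deviation (-0.0012). These values are a description, since the libraries share their scaling and differ in depth and in the cells captured.

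The genes whose pattern over the 21 libraries was most like each member were sought among 12417 other genes with an average of at least 1 log2 CPM. For Tgfbi these were Abcc3, Otulinl and Lrrc25 (Pearson correlation of log2 CPM 0.983, 0.98 and 0.978), and for Tgfb1 they were Spi1, Efhd2 and Nfkbid (0.966, 0.962 and 0.955). Those most like Tgfbr2 were Zeb2, Timp2 and Itpripl2 (0.952, 0.944 and 0.935), those most like Tgfbr1 were Niban1, Myadm and Creb5 (0.944, 0.934 and 0.925), and those most like Tgfb3 were Dyrk2, Scimp and Lacc1 (0.918, 0.917 and 0.912). For these 5 members the 15 values after subtraction of group means ran from 0.92 (Tgfb3 and Scimp) to 0.983 (Tgfbi and Otulinl). Smad7 was most like Arl4d, Ptpn14 and Gata2 (0.935, 0.93 and 0.925), which dropped to 0.772, 0.735 and 0.737 after subtraction of group means. Tgfb2 was most like Slc4a11, Zfp386 and Zfp46 (0.822, 0.813 and 0.807), which dropped to 0.597, 0.599 and 0.551. Smad3 was most like Bfar, Klhl17 and Man2b2 (0.797, 0.772 and 0.765) and Smad2 most like Rttn and Wdfy2 (0.74 and 0.728). For Tgfb2 and Smad7 the likeness was thus lower within groups. The genes were picked by the correlation that includes group differences, so this drop can come from the choice alone.

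A wider list of 80 genes of the TGF-beta superfamily put the 9 genes in context. It covers co-receptors, latency and activation, other Smads and modulators, targets, and the arms of the bone morphogenetic proteins (BMPs) and activins. Acvrl1, itself a receptor kinase, was grouped with the co-receptors Tgfbr3 and Eng. Of the 80 genes, 76 passed the filter, and Postn, Inhba, Acvr1c and Mstn did not, with at most 11, 14, 2 and 0 counts in a library. With age, 6 of the 76 rose and 26 fell, against backgrounds of 12.2% and 12.4% of all genes, and their median log2 fold change was -0.18. In 12 of the 76, the young and saline libraries did not overlap, against 9.37% of all tested genes. The calls were 2 of 3 lower among the co-receptors, 3 of 14 higher and 7 lower in latency and activation, 1 of 16 higher and 4 lower among Smads and modulators, 0 of 19 higher and 7 lower in the BMP arm and 1 of 9 lower in the activin arm. Among the targets 2 of 15 were higher and 5 lower, yet their median log2 fold change was 0.12. At an unadjusted p under 0.05, 0 genes of the BMP arm and 1 of the activin arm were higher, without a background at that threshold.

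The 5 largest falls with age were in Smad6, Smad9, Sparc, Ccn2 and Acta2. Smad6, the inhibitory Smad of the BMP arm, ranged from 14.3 to 40.6 CPM in young and from 7.01 to 13.6 CPM in saline libraries, with no overlap (log2 fold change -1.36, SE 0.24, adjusted p = 0.000457). Smad7, the other inhibitory Smad, was lower as well, and so were 10 of 11 endothelial markers (edgeR, adjusted p under 0.05). Smad9, a BMP-activated Smad of low level, fell from a mean of 2.17 to 0.875 CPM (log2 fold change -1.32). Ccn2, a matricellular protein induced by TGF-beta, ranged from 60.4 to 157 CPM in young and from 33.8 to 63.6 CPM in saline libraries (log2 fold change -1.14). Sparc (log2 fold change -1.20), a matricellular protein, and Acta2 (-1.12), smooth muscle actin, did not overlap between the groups. Acta2 is also 1 of the 10 mesangial and smooth muscle markers, whose sum was 201 to 288 CPM in young and 77.7 to 137 CPM in saline libraries, with none at 0. The part of mesangial, smooth muscle or endothelial cells in the falls was not tested.

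The 5 largest rises with age were in Col1a1, Ltbp2, Dcn, Fn1 and Nrros. Fn1, which encodes fibronectin, ranged from 4.13 to 8.70 CPM in young and from 11.8 to 31.6 CPM in saline libraries, with no overlap (log2 fold change 1.30, SE 0.23, adjusted p = 0.000407). Nrros, which anchors latent TGF-beta1 on myeloid cells, ranged from 20.4 to 67.1 CPM and from 56.7 to 103 CPM (log2 fold change 0.92, SE 0.26, adjusted p = 0.0116). Col1a1, the collagen I chain (log2 fold change 1.94), Ltbp2, a latent TGF-beta binding protein homologue (1.63), and the proteoglycan decorin, Dcn (1.60), were at means of 0.288 to 1.32 CPM in young and 0.862 to 3.94 CPM in saline libraries. The other collagen I chain, Col1a2, moved the opposite way, from a mean of 3.67 to 1.82 CPM (log2 fold change -1.03, adjusted p = 0.00653), and it is named here after its values were seen. Col1a1, Col1a2 and Dcn are also among the 9 fibroblast markers, of which 8 were tested, 3 higher and 3 lower with age. Their sum was 41.5 to 76.5 CPM in young and 20.6 to 44.4 CPM in saline libraries. The log2 fold change was above 0 for 5 of the 8 and below 0 for 3, with a median of 0.84. The sum and the median marker thus moved in opposite directions.

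With MCC950, 6 of the 76 genes were higher and 11 lower than in saline libraries, against backgrounds of 11.9% and 4.86%, and their median log2 fold change was -0.09. Strap was the 1 gene of the 76 that did not overlap between the groups, where 1.74% of all tested genes did not. Lower were 1 of 3 co-receptors, 4 of 14 genes of latency and activation, 1 of 15 targets, 1 of 19 genes of the BMP arm and 4 of 9 of the activin arm. Higher were 3 of 16 Smads and modulators and 3 of 19 genes of the BMP arm. The total of 17 rested on single libraries: it was 7 without saline replicate 4, 8 without MCC950 replicate 1, 9 without MCC950 replicate 4, 10 without saline replicate 6 and 11 without MCC950 replicate 8.

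The 5 largest falls with MCC950 were in Inhbb, Ltbp2, Fst, Cdkn2b and Bmpr1b. Inhbb, a subunit of activin B, was at a mean of 1.25 ± 0.561 CPM in saline (SD, n = 7) and 0.313 ± 0.251 CPM in MCC950 libraries (n = 8; log2 fold change -1.99, SE 0.40, adjusted p = 0.00422). Fst, which encodes the activin antagonist follistatin, was at 4.70 ± 1.60 and 2.08 ± 1.18 CPM (log2 fold change -1.18, SE 0.35, adjusted p = 0.0251). Ltbp2, at 0.862 and 0.359 CPM (log2 fold change -1.27), Cdkn2b, a cell cycle inhibitor induced by TGF-beta, at 1.41 and 0.893 CPM (-0.65), and the BMP receptor Bmpr1b, at 4.73 and 3.16 CPM (-0.58), were low as well. The groups overlapped for all 5. In libraries thinned to equal depth, Bmpr1b did not pass (log2 fold change -0.54, edgeR, adjusted p = 0.12). Inhbb (adjusted p = 0.00404), Ltbp2 (0.00843), Fst (0.013) and Cdkn2b (0.0317) passed there. Ltbp2 was thus among the largest rises with age and among the largest falls with MCC950, and the 2 comparisons share the saline libraries.

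The 5 largest rises with MCC950 were in Nog, Chrd, Bmp6, Strap and Fkbp1a. Nog and Chrd, which encode the BMP antagonists noggin and chordin, were low, at means of 0.832 and 0.981 CPM in saline and 1.54 and 1.68 CPM in MCC950 libraries (log2 fold changes 0.90 and 0.77, adjusted p = 0.0441 and 0.039). Bmp6, a BMP ligand, ranged from 9.15 to 18.9 CPM in saline and from 16.5 to 25.8 CPM in MCC950 libraries (log2 fold change 0.68, SE 0.14, adjusted p = 0.005). Strap, which holds SMAD7 on the receptor, ranged from 19.8 to 23.1 CPM and from 24.5 to 29.8 CPM, with no overlap (log2 fold change 0.31, SE 0.06, adjusted p = 0.00172). Fkbp1a, which binds TGFBR1 and keeps it inactive, was at 40.1 ± 3.41 and 48.9 ± 4.75 CPM (log2 fold change 0.29, SE 0.07, adjusted p = 0.0142). Between the same groups 8 of 12 proximal tubule markers were also higher, and their part in these rises was not tested. With libraries thinned to equal depth 2 of the 76 genes were called higher in place of 6: Strap (log2 fold change 0.26, adjusted p = 0.0128) and Bmp6 (0.60, adjusted p = 0.00913) passed, while Nog (adjusted p = 0.0627), Chrd (0.128) and Fkbp1a (0.0999) did not. Without saline replicate 4 the number called higher was also 2.

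Against young libraries, 5 of the 76 genes were higher and 31 lower in MCC950 libraries, where 21.8% and 16.5% of all tested genes were. The median of their log2 fold changes was -0.27 against 0.08 for all tested genes. In 11 of the 76 the groups did not overlap, against 7.94% of all tested genes. Lower were 3 of 3 co-receptors, 8 of 14 genes of latency and activation, 4 of 16 Smads and modulators, 6 of 15 targets, 7 of 19 genes of the BMP arm and 3 of 9 of the activin arm.

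**Figure D5:**
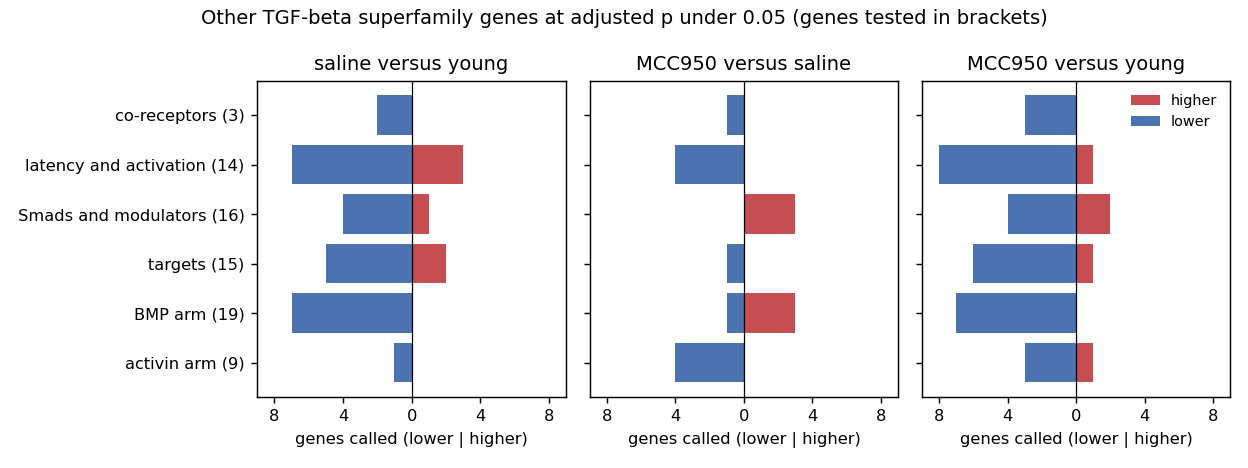
Number of other TGF-beta superfamily genes called higher (red, to the right) or lower (blue, to the left) at an adjusted p under 0.05 by edgeR, by sublist (genes tested in brackets), for the 3 comparisons. With age 26 of 76 genes lie to the left and 6 to the right, with MCC950 11 and 6, and in MCC950 against young libraries 31 and 5.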

How the data were processed

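RNA of podocyte fractions from 6 young, 7 saline-treated and 8 MCC950-treated mice was sequenced, 1 library per mouse, and samples were grouped by their labels (6 young libraries, where the study's text gives 5 mice of 4 months). The authors prepared TruSeq libraries, trimmed reads with Trim Galore, aligned them with Bowtie2 to mm10 (GRCm38) and used featureCounts to count reads for each gene. Tool versions, the annotation release, the strand setting and the handling of reads with several alignments were not given in the sources used here. The deposited counts are whole read counts without normalization for 27179 genes by Entrez number, of which 25275 were named through RefSeq and GENCODE. The deposited table of normalized values was not used here. Libraries of a group differed by more than sampling noise, with a chi-square of at least 16.7 times its degrees of freedom for each pair.

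The test of the counts was that of edgeR 4.0.16 under R 4.3.3 (TMM, filterByExpr by group with a minimum of 10, quasi-likelihood F test, all 3 groups in one fit, Benjamini-Hochberg adjustment over 16377 genes, threshold 0.05). SE was taken from the log2 fold change and the F statistic (their ratio, with F under a square root), and 95% intervals are normal. CPM use TMM-scaled totals, and log2 CPM a prior count of 2. Total counts set the depth, with 5804891 counts outside mitochondrial genes in the lowest library. Per-kb levels use the exon union of GENCODE M21. Exons of Tgfb2 and Tgfb3 overlap opposite-strand genes that are not in the count tables, by 124, 163 and 257 bases, so without a stated strand setting such reads would be counted in. Alternatives were DESeq2 1.42.0, DESeq2 size factors, no filter, a replicate block, only the groups compared, no mitochondrial genes, thinned libraries, each library left out, MCC950 replicates 6 and 7 both left out (added after the data were seen), and the study's threshold of unadjusted p under 0.05 with more than 2-fold change. Python 3.11.15 with pandas 2.3.3, numpy 2.4.6 and matplotlib 3.10.9 made summaries and figures. The workflow was tested on simulated counts. Genes named are the 9 members, the 5 largest rises and falls of other pathway genes with age and with MCC950 among those called, and for each member the 3 genes of most similar pattern, of which 1 is not reported here. The members and lists were chosen with earlier results of these data known.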

Additional observations from a re-analysis of the deposited data

Results flagged for a closer look

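Each of the 9 genes was examined in each of the 3 groups for a library far from the others, which made 27 groups of values, and chance alone marks about 1 in 20 such groups. The search found 2 values. Smad3 in young replicate 6 was at 27.1 CPM, with a gap to the next young library of 0.661 of the group's range. Smad7 in MCC950 replicate 6 was at 13.4 CPM, with a gap to the next MCC950 library of 0.651 of the range. Without young replicate 6 the log2 fold change of Smad3 with age was 0.19 (edgeR, adjusted p = 0.0763). Without MCC950 replicate 6 that of Smad7 was -0.15 (adjusted p = 0.195) against saline and -0.63 (adjusted p = 2.48e-05) against young libraries.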

How the results depend on the processing

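Of 216 log2 fold changes of the 9 genes recomputed under 8 settings, 210 kept their direction and their side of the threshold. Tgfb1 with age passed at 0.59 (adjusted p = 0.0184) with replicate number as a block, which raised the members called from 2 to 3. The other 5 arose without both MCC950 replicates 6 and 7, a setting chosen after seeing the data: Tgfbr1 passed with MCC950, which raised the members called from 1 to 2, and against young, and Tgfb3 with MCC950 (-0.246) and against young (-0.069) and Smad3 against young (-0.019) reversed without passing. The block changed no other call of a member and gave 32, 16 and 37 other pathway genes called with age, with MCC950 and in MCC950 against young. The numbers were not treated as pairs, since they count mice within a group and the study names no block. Same-numbered libraries had correlations of -0.061 to 0.35 with age, -0.14 to 0.33 with MCC950 and -0.013 to 0.40 against young. Those of replicate 1 were 0.35, 0.29 and 0.40. Differently numbered libraries were not compared, so a batch shared by number was not tested. Under the study's threshold 0 members were called in each comparison, and 11, 5 and 11 other pathway genes. The share of all tested genes at that threshold is not given here. Thinned libraries gave 2 higher and 10 lower other pathway genes with MCC950. Among 567 fits of members without 1 library, 556 kept direction and side. Members called ranged from 2 to 3 with age, were 1 throughout with MCC950 and ranged from 2 to 3 against young, and other pathway genes called ranged from 26 to 33, 7 to 18 and 32 to 40. Directions reversed, without passing the test, for 5 log2 fold changes. Without 1 library they ranged from -0.221 to 0.023 for Tgfb2 with age (reversed without young replicate 1), from -0.060 to 0.192 for Tgfbr1 with age (reversed without young replicate 1 or, at -0.033, saline replicate 2), from -0.015 to 0.048 for Smad2 with age (saline replicate 3), from -0.064 to 0.202 for Tgfb3 with MCC950 (MCC950 replicate 7) and from -0.146 to 0.007 for Tgfbr2 against young (young replicate 4 or, at 0.002, MCC950 replicate 1). The cause was not tested. Tgfb2 and Tgfb3 had the lowest counts of the 9 genes, with as few as 53 and 71 in a library. At equal depth the SE of the change with age was 0.223 against 0.207 for Tgfb2 and 0.326 against 0.31 for Tgfb3. Saline libraries were deeper than young libraries, and libraries were thinned to 5804891 counts outside mitochondrial genes to compare at equal depth.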
